A study of Mus musculus with 4 samples.

Results

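Cells of shielded mouse hindlimbs were compared between 24 hours and 56 days after X-rays were given to the other hindlimb. All barcodes with at least 200 genes, at least 500 unique molecular identifiers (UMIs) and at most 20% mitochondrial UMIs were taken. They numbered 1336 at 24 hours and 1700 at 56 days, together 3036 of the 6544 barcodes that passed the same limits in the series. Male C57Bl/6J mice, 5 weeks old, received 3 fractions of 8.2 Gy to 1 hindlimb while lead covered the rest of the body. The shielded opposite limb is the control (CON), so every control came from a mouse with an irradiated limb (IR), and no limb of an unirradiated mouse is among the samples. Limbs of 3 mice were pooled in each library, and the mice of the later library were 56 days past irradiation, hence older. Connective and fat tissue was removed, the muscle was digested with collagenase B and dispase II, red cells were lysed, and at least 10000 live mononucleated cells were sorted. Each group is 1 library, so no test between the times was possible, and time, age, library and day of processing cannot be told apart.

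Hindlimb muscle grows quickly in the weeks after weaning and slows in the adult. Fibro-adipogenic progenitors (FAPs) lay down much of its collagen, satellite cells are the stem cells that supply nuclei to growing fibres before they enter quiescence, and capillary endothelium hands fatty acids to the fibres. Fibres themselves have many nuclei and are removed by a mononucleated sort, so their RNA enters such libraries as fragments or free RNA. Imprinted genes such as H19 and Dlk1 are known for high levels in growing young tissue and a decline with age.

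The kept barcodes held 6026307 UMIs at 24 hours and 8563823 at 56 days, and the median barcode had 3468 UMIs in the first and 3627 in the second, from 1415.5 and 1552.5 genes. Only 1 kept barcode sequence was shared by the shielded libraries. Barcodes were placed in classes by marker gates that asked for at least 2 distinct markers and at least 3 of their UMIs, and further markers kept out of the gates were at least 2-fold higher in every class described than in the remaining barcodes. Levels are UMIs of a gene scaled to a class total of 1000000 (CPM), and ratios are those of 56 days over 24 hours. A gene was measured with at least 30 UMIs over both libraries and is called higher or lower from 1.5-fold. All intervals are 95% intervals of counting error alone and hold no spread between animals. Those of gene ratios take each UMI as an independent count, so they hold no spread between barcodes either. The same ratio in the irradiated limbs, which are separate libraries and carry the treatment, is given beside many values. Since the control is the opposite limb, both libraries of a time may come from the same mice, age and day. A like ratio in the irradiated limbs is therefore not an independent repeat.

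B and T cells made up a smaller share of the shielded library at 56 days than at 24 hours, and neutrophils a larger one. B cells were 241 of 1336 barcodes (18.0%, 16% to 20.2%) at 24 hours and 68 of 1700 (4.00%, 3.12% to 5.04%) at 56 days, a ratio of 0.222 (0.167 to 0.291). T cells were 139 barcodes (10.4%) and then 14 (0.824%), a ratio of 0.0792. Neutrophils, short-lived phagocytes made in marrow, were 30 barcodes (2.25%) and then 237 (13.9%), a ratio of 6.21 (4.24 to 9.41). The groups' intervals for these 3 blood classes did not overlap. Among the other classes described below, they were also apart for monocytes or macrophages and for endothelial, satellite, tenocyte and myofibre-rich barcodes. For FAPs, Schwann cells, mural cells and erythroid barcodes they overlapped. Such intervals hold counting error within 1 pooled library a group, so their lack of overlap is not a test between the times.

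Among blood and marrow barcodes alone, B cells were 50.0% at 24 hours and 14.3% at 56 days, T cells 28.8% and 2.94%, and neutrophils 6.22% and 49.7%. Erythroid barcodes, nucleated red cell precursors, were 52 (3.89%) and 90 (5.29%), with a ratio of 1.36 whose interval ran from 0.956 to 1.95. Monocytes or macrophages were 14 (1.05%) and 53 (3.12%), a ratio of 2.98 (1.63 to 5.81). That direction held for the gates only: with classes taken from Leiden clusters the ratio was 0.799, since 1 cluster of the 24-hour library held 60 barcodes of which 58.3% of the gated ones were of this class. The source of the blood and marrow barcodes was not tested.

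Stromal and vascular classes together were 648 barcodes (48.5%) at 24 hours and 1080 (63.5%) at 56 days. Endothelial barcodes were 474 (35.5%, 32.9% to 38.1%) and 786 (46.2%, 43.8% to 48.6%), a ratio of 1.30 of all barcodes. Taken among stromal and vascular barcodes they were 73.1% and 72.8%, a ratio of 0.995. The remaining barcodes, which were blood cells, fibre RNA and barcodes that met several gates or none, together had a smaller share at 56 days. FAPs were 49 barcodes (3.67%) and 100 (5.88%), a ratio of 1.60 (1.13 to 2.31), and 1.22 (0.862 to 1.76) among stromal and vascular barcodes. Satellite cells were 26 (1.95%) and 65 (3.82%), a ratio of 1.96 (1.23 to 3.23), and 1.50 (0.939 to 2.46) among stromal and vascular barcodes.

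Schwann cells, the glia of the nerves in muscle, were 53 barcodes (3.97%) and 57 (3.35%), a ratio of 0.845. Mural cells, that is pericytes and smooth muscle cells of vessel walls, were 44 (3.29%) and 54 (3.18%), a ratio of 0.964 (0.636 to 1.47). Tenocytes, the fibroblasts of tendon, were 2 barcodes at 24 hours and 18 at 56 days, too few to describe further. Barcodes with at least 20% of their UMIs from fast fibre genes, called myofibre-rich here, were 81 (6.06%) and 28 (1.65%), a ratio of 0.272 (0.170 to 0.422). Their median was 1110 and 1027.5 UMIs. Of these, 20 of the 81 and 20 of the 28 lay less than 5 points above the limit, and 8 and 14 further barcodes lay less than 5 points below it, so most of the class at 56 days sat at its edge. In the irradiated limbs B cells were 4.06% and 6.09%, T cells 1.18% and 0.826%, neutrophils 1.30% and 2.37%, and endothelial barcodes 59.2% and 48.8%. Satellite cells were 2.56% and 2.89% there, and myofibre-rich barcodes 4.88% and 3.61%.

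**Figure D1:**
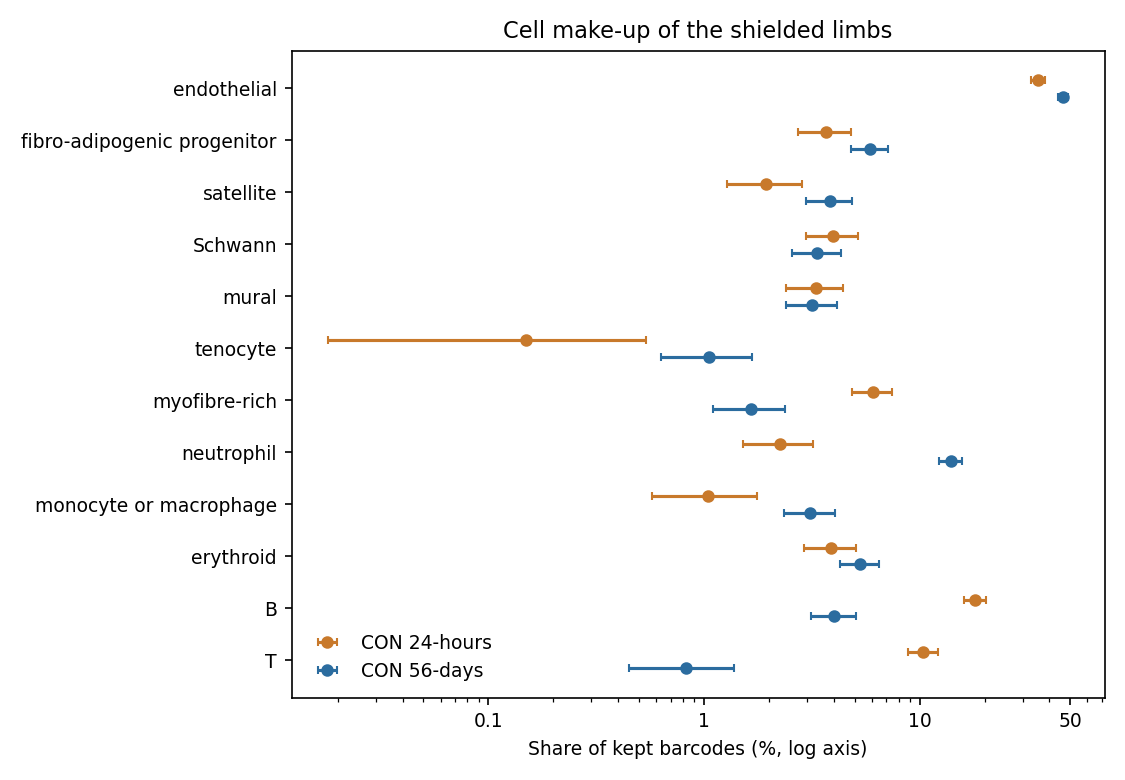
Share of kept barcodes (percent, log axis) in 12 marker-gated classes of the shielded limbs at 24 hours (orange) and 56 days (blue), 1 library each. Points are shares and bars exact binomial 95% intervals; B cells stand at 18.0% and 4.00% and neutrophils at 2.25% and 13.9%.

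In the endothelial class, most immediate early genes were lower at 56 days than at 24 hours, as were 9 of 19 targets of p53, and clock genes went both ways. At the 1.5-fold limit 1119 of 9289 measured genes (12%) were higher at 56 days and 818 (8.81%) lower, and the median log2 ratio over all of them was 0.02. Immediate early genes, which encode transcription factors and phosphatases switched on within minutes of a stimulus or of tissue handling, were lower for 12 of the 16 measured and higher for none, with a median log2 ratio of -1.04 that was -1.09 in the irradiated limbs. Junb, a subunit of the AP-1 factor, had 653 CPM at 24 hours and 219 CPM at 56 days, a ratio of 0.336 (0.303 to 0.371). Ier2, an immediate early regulator, had 421 and 150 CPM, a ratio of 0.355 (0.313 to 0.402). Fos, the partner of Jun in AP-1, had 517 and 226 CPM, a ratio of 0.437 (0.393 to 0.486). The irradiated limbs also had lower levels at 56 days, with ratios of 0.497 for Junb, 0.564 for Ier2 and 0.324 for Fos.

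The clock list held genes that moved in opposite directions. The clock runs on Arntl and Clock, which drive Per, Cry, Nr1d1 and Dbp through E-box sequences, and these targets feed back on it. Arntl, the activator, had 19.6 CPM at 24 hours and 48.9 CPM at 56 days, a ratio of 2.49 (1.70 to 3.75). Dbp, a clock output factor, had 57.1 and 9.92 CPM, a ratio of 0.174 (0.108 to 0.270). Per1, a repressor of the clock, had 32.3 and 6.87 CPM, a ratio of 0.213 (0.118 to 0.367). Nr1d1, which represses Arntl, had 67.5 and 36.3 CPM, a ratio of 0.537 (0.405 to 0.710). Arntl was thus high where its repressors and Dbp were low. Of the 11 clock genes measured, 3 were higher and 5 lower. The ratios in the irradiated limbs had the same signs: 6.92 for Arntl, 0.0850 for Dbp, 0.108 for Per1 and 0.463 for Nr1d1. The hour of day at which limbs were taken is not given in the sources used here.

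Promoter sequence is shown for Per1, which with Dbp was a ranked clock gene of endothelium, and for Btg2 and Dusp1, the immediate early genes whose windows held the motif searched, since members of both lists moved together or apart. The sequences are RefSeq promoter windows of GRCm38.p6, read 5′ to 3′ on the strand of the gene, with bases annotated as untranslated region left out. In each sequence the capitals mark only the motif searched for the gene's own list. The E-box CACGTG, its own reverse complement, stood 166 bases upstream of a transcript start of Per1, in the window chr11:69098699-69098947 on the plus strand. That start lies inside the annotated span of the gene, chr11:69095217-69109960, which begins further upstream. The cyclic AMP response element TGACGTCA, also its own reverse complement, stood 166 bases upstream of the start of Btg2, in the window chr1:134079156-134079405 on the minus strand, and 143 bases upstream of the start of Dusp1, in the window chr17:26508520-26508722 on the minus strand. For Dusp1 the 47 bases next to the start are among those left out, so the printed sequence ends before the start. The Dusp1 sequence also holds CACGTG, which stays in lower case because that motif was marked for clock genes only.
Per1: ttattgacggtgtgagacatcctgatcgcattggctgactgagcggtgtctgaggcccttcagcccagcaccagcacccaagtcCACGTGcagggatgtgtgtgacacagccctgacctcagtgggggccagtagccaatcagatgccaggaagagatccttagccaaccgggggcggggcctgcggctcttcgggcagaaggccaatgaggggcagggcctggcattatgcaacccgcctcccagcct
Btg2: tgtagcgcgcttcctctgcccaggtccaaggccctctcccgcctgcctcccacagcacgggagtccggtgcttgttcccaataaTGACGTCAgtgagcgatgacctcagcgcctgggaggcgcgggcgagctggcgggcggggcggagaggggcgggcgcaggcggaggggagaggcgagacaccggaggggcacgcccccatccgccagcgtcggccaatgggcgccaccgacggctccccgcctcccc
Dusp1: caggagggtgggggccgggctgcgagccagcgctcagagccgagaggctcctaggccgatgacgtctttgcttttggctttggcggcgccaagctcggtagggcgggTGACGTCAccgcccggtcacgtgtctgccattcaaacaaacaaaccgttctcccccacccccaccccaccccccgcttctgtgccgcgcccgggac
CACGTG was found in 5 of the 15 clock genes with a window and in 1978 of all 32851 windows of 250 bases (6.02%). TGACGTCA was found in 2 of the 15 immediate early genes with a window and in 508 of all windows (1.55%). The list counts are of genes with a match in any of their windows, and the others are of single windows. The shares are thus of unlike units and cannot be set against each other. A match describes the letters and does not show that a factor binds. In endothelium Dusp1, a phosphatase that ends MAP kinase signals, had 602 and 278 CPM, a ratio of 0.463 (0.420 to 0.509). Btg2, an antiproliferative gene, had 345 and 353 CPM, a ratio of 1.02 (0.923 to 1.14), so these genes with the same motif differed. Both genes were chosen here for the motif, after their values were seen.

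Targets of p53, the factor that arrests damaged cells, were lower for 9 of the 19 measured and higher for none in shielded endothelium, with a median log2 ratio of -0.55. Cdkn1a, the cyclin-dependent kinase inhibitor p21, had 316 CPM at 24 hours and 161 CPM at 56 days, a ratio of 0.508 (0.447 to 0.578). Phlda3, a repressor of Akt, had 126 and 42.7 CPM, a ratio of 0.338 (0.267 to 0.427). Bax, which opens the mitochondrial membrane in apoptosis, had 454 and 182 CPM, a ratio of 0.401 (0.357 to 0.450). In the irradiated limbs Cdkn1a had 2371 and 1470 CPM, above both shielded libraries.

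Heat shock genes, which encode chaperones, were higher for 5 of 12 and lower for none. Hsp90aa1 had 165 and 295 CPM, a ratio of 1.79 (1.56 to 2.06), and Hsph1, a partner of Hsp70, had 10.4 and 25.6 CPM, a ratio of 2.46 (1.45 to 4.4). MHC class I genes, which show peptides to T cells, were higher for 2 of 12, with H2-K1 just under the limit at 977 and 1452 CPM, a ratio of 1.49 (1.40 to 1.57). Interferon-response genes were lower for 3 of 16 and higher for none in the shielded limbs. Isg15, a ubiquitin-like protein made on interferon signals, had 267 and 136 CPM, a ratio of 0.510 (0.443 to 0.587), and Irf7, a factor of the same response, had 100 and 59.5 CPM, a ratio of 0.593 (0.475 to 0.741). In the irradiated limbs the same list was higher for 14 of 16 genes (8.4% of all genes measured there were higher), with ratios of 2.40 for Isg15 and 3.71 for Irf7. Isg15 was no longer past 1.5-fold in the shielded limbs when each barcode was thinned to 1000 UMIs.

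The genes ranked furthest higher in shielded endothelium were Prg4, H2-Q7, Tgtp2, Gvin1 and Rassf9. Prg4, the lubricant proteoglycan lubricin, had 21.3 and 118 CPM, a ratio of 5.53 (3.92 to 8.0), against 0.973 in the irradiated limbs. H2-Q7, a nonclassical MHC class I gene, had 41.0 and 201 CPM, a ratio of 4.90 (3.82 to 6.37), against 7.08. The interferon-inducible GTPase genes Tgtp2 and Gvin1 had 8.08 and 53.4 CPM and 6.92 and 46.2 CPM, with ratios of 6.62 and 6.67. Rassf9 had 102 and 429 CPM, a ratio of 4.20 (3.58 to 4.95). H2-Q7, Tgtp2 and Gvin1 belong to families of near-identical copies, so reads could be split among relatives. Besides Dbp, Per1, Junb and Ier2, the ranked lower gene was Tmem252, with 44.4 and 4.58 CPM, a ratio of 0.103 (0.0511 to 0.191).

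Matrix and fatty acid genes of the endothelium differed by gene. Sparc, a collagen-binding matricellular protein, had 4706 and 1950 CPM, a ratio of 0.414 (0.400 to 0.429), and lay between 0.406 and 0.419 under every alternative run. Col4a1, a chain of basement membrane collagen, had 2622 and 1908 CPM, a ratio of 0.728, and Col15a1, a collagen at the edge of the basement membrane, had 192 and 95.4 CPM, a ratio of 0.497. Of 13 basement membrane genes measured, 1 was higher and 2 were lower, close to the shares among all genes. Lpl, lipoprotein lipase, had 374 and 594 CPM, a ratio of 1.59 (1.45 to 1.74), inside 1.5-fold after thinning and when barcodes were weighed equally. Fabp4, the fatty acid binding protein that is the most abundant of the list, had 26811 and 19369 CPM, a ratio of 0.722, and Rbp7, a retinol binding protein, had 360 and 194 CPM, a ratio of 0.538. The fatty acid list as a whole had 1 member higher and 3 lower of 14, again close to the background.

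Growth factor genes in endothelium differed by gene as well. Igf1 and Igf2, the insulin-like growth factors, had 35.8 and 24.8 CPM and 88.8 and 111 CPM, ratios of 0.694 (0.482 to 0.999) and 1.25 (1.02 to 1.53), neither of them past 1.5-fold. Igfbp4, a binding protein that holds back IGF, had 175 and 86.3 CPM, a ratio of 0.494 (0.414 to 0.588). Insr, the insulin receptor, had 28.3 and 55.3 CPM, a ratio of 1.96 (1.41 to 2.77). Leukocyte adhesion genes of venules were lower for 4 of 8 and higher for none, but their median log2 ratio of -0.66 became -0.25 when barcodes were weighed equally. Sprouting genes were higher for 2 and lower for 3 of 15. RNA of other cells moved beside these values: the 4 haemoglobin genes summed to 428 and 2027 CPM in endothelial barcodes, fibre genes to 421 and 284 CPM, and S100a8 with S100a9 to 18.5 and 109 CPM. FAP gate genes summed to only 7.5 and 10.7 CPM, with 3 and 2 of the 8 at 0. The part of foreign RNA in the ratios was not tested.

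**Figure D2:**
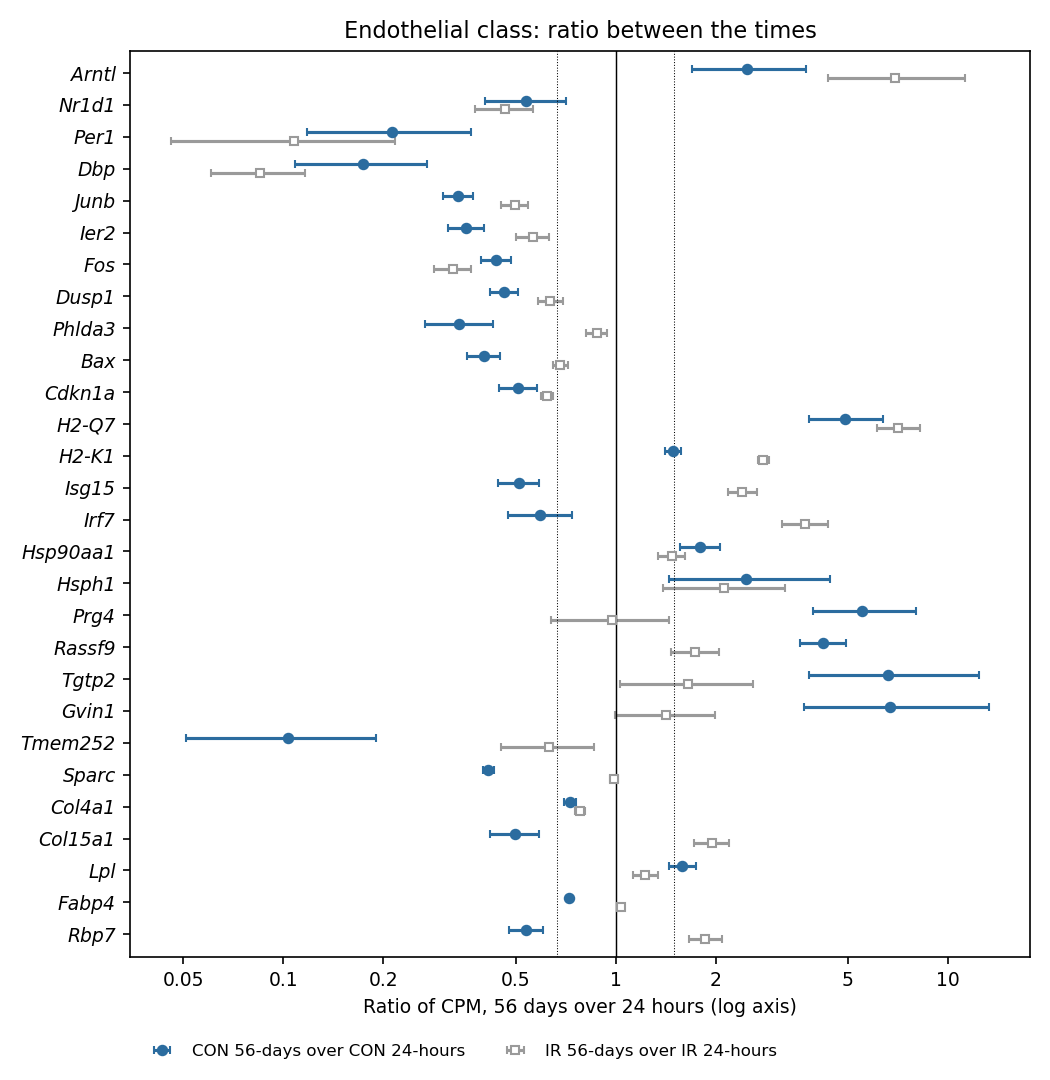
Ratio of CPM between 56 days and 24 hours (log axis) for 28 genes of the endothelial class in the shielded limbs (blue) and, beside it, the irradiated limbs (grey). Bars are 95% intervals of counting error and dotted lines mark 1.5-fold; Dbp stands at 0.174 and H2-Q7 at 4.90 in the shielded limbs, while Isg15 and Irf7 lie on opposite sides of 1 in the 2 pairs.

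In FAPs, the abundant collagen genes Col1a1, Col1a2 and Col3a1 and 7 of 10 imprinted genes were lower at 56 days, and 7 of 8 clock genes and the complement genes C7 and C3 were higher. Of 5078 genes measured, 1078 (21.2%) were higher and 502 (9.89%) lower, with a median log2 ratio of 0.09; centred on the median gene, the counts were 875 and 693. The class had a median of 3380 UMIs per barcode at 24 hours and 6753.5 at 56 days. Col1a1, a chain of type I collagen, had 9323 and 2930 CPM, a ratio of 0.314 (0.296 to 0.333), and 0.606 in the irradiated limbs. Col3a1, the collagen of fine reticular fibres, had 16097 and 7080 CPM, a ratio of 0.440 (0.422 to 0.458). Sparc had 12555 and 4434 CPM, a ratio of 0.353 (0.336 to 0.371). These 3 were among the most abundant transcripts of FAPs at both times. Col1a2, the partner chain of Col1a1, had 9827 and 4255 CPM, a ratio of 0.433, and is named outside the rule because of that pairing. Postn, a matricellular protein of growing tissue, had 675 and 20.6 CPM, a ratio of 0.0305 (0.0163 to 0.0524), with 46.0% of its 189 UMIs at 24 hours in 1 barcode. Of 27 genes measured on the collagen list, 8 were lower and 5 higher.

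Imprinted growth genes were lower for 7 of 10 and higher for none in FAPs, with a median log2 ratio of -1.32 that became -0.55 when barcodes were thinned to 1000 UMIs. Meg3, a maternally expressed noncoding RNA, had 1385 and 439 CPM, a ratio of 0.317 (0.272 to 0.370), and 0.368 in the irradiated limbs. Peg3, a paternally expressed zinc finger gene, had 143 and 45.5 CPM, a ratio of 0.319 (0.193 to 0.523). H19, a maternally expressed noncoding RNA of fetal tissue, had 36 UMIs at 24 hours and 1 at 56 days, a ratio of 0.0114 (0.000282 to 0.0679), and 30 and 0 UMIs in the irradiated limbs. Gpx7, a peroxidase of the endoplasmic reticulum, was also among the ranked lower genes, with 211 and 47.0 CPM and a ratio of 0.223.

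The genes ranked furthest higher in FAPs were C7, Inmt and Hsd11b1. C7, a part of the complement pore, had 28.6 and 398 CPM, a ratio of 13.9 (6.97 to 32.6), and 10.7 in the irradiated limbs. Inmt, an N-methyltransferase, had 3 and 108 UMIs, and Hsd11b1, which regenerates active glucocorticoid, had 2 and 87, with ratios of 14.8 (4.93 to 72.9) and 17.9 (4.81 to 150). Complement genes as a list were higher for 4 of 8 and lower for 1. C3, the central component of complement, had 586 and 964 CPM, a ratio of 1.65 (1.38 to 1.96). Fkbp5, induced by glucocorticoid, had 2 and 43 UMIs, a ratio of 8.84 (2.30 to 75.4), inside 1.5-fold after thinning.

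Growth factor ligands in FAPs were higher for 3 of 16 and lower for 2, near the background. Ccn2, connective tissue growth factor, had 14.3 and 156 CPM, a ratio of 10.9 (4.13 to 40.7), but 0.521 when classes were taken from Leiden clusters. Fgf2 had 7 and 61 UMIs, a ratio of 3.58 (1.64 to 9.29), and Igf1 had 471 and 373 CPM, a ratio of 0.792 (0.639 to 0.984). Serpine2, a protease inhibitor, had 229 and 590.5 CPM, a ratio of 2.58 (1.98 to 3.42). Lama2, the laminin chain of the muscle basement membrane, had 478 and 783 CPM, a ratio of 1.64 (1.35 to 1.99), and was under 1.5-fold, as was C3, once the 5% of barcodes with the highest doublet scores were left out.

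Clock genes in FAPs were higher for 7 of the 8 measured and lower for 1, unlike the mixed directions of endothelium, though the difference between the classes was not tested. Per3 had 1 UMI at 24 hours and 31 at 56 days, a ratio of 12.8 (2.13 to 520), and Tef, an output factor, had 7 and 39, a ratio of 2.29 (1.01 to 6.07) that was inside 1.5-fold when barcodes were weighed equally. These are low counts, and the list's median log2 ratio was 0.85 in the shielded and -0.89 in the irradiated limbs. Immediate early genes were lower for 9 of 16, and Fos had 1225 and 416 CPM, a ratio of 0.339 (0.289 to 0.398), against 1.49 in the irradiated limbs. Their median log2 ratio of -0.80 became -0.24 without the barcodes of highest doublet score, 14 of the 49 FAPs at 24 hours among them. Cdkn1a had 143 and 101 CPM, a ratio of 0.710 (0.474 to 1.08), which does not reach 1.5-fold. In FAP barcodes haemoglobin summed to 193 and 69.0 CPM, immunoglobulin constant genes to 7.14 and 76.4 CPM and B cell gate genes to 0 and 25 CPM, and their part in the ratios was not tested.

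In satellite cells, matrix genes, a cyclin and several growth factor ligands were lower at 56 days, and Hes1 and Lpl were higher. Of 2475 genes measured, 398 (16.1%) were higher and 383 (15.5%) lower, with a median log2 ratio of -0.05 over 26 barcodes at 24 hours and 65 at 56 days. Ccnd1, the cyclin that drives entry into the cell cycle, had 613 and 113 CPM, a ratio of 0.184 (0.121 to 0.272), and 0.172 in the irradiated limbs. Mki67 or Top2a, genes of dividing cells, had UMIs in 1 of 26 satellite barcodes at 24 hours and in 0 of 65 at 56 days. At 3 counts, the limit used here for a count of 0, up to 4.62% of barcodes could hold such a UMI. After thinning to 1000 UMIs no satellite barcode of either shielded library held one. Myofibre-rich barcodes, which have no dividing cell, had 0 of 81 and 0 of 28, at median depths of 1110 and 1027.5 UMIs against 7674.5 and 4514 in satellite cells. Myod1, a factor of myogenic commitment, had 15 and 27 UMIs, a ratio of 1.08 (0.555 to 2.18).

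The quiescence list of satellite cells was higher for 4 and lower for 2 of 12. Hes1, a Notch target that keeps satellite cells quiescent, had 287 and 630 CPM, a ratio of 2.19 (1.61 to 3.04), and 2.82 in the irradiated limbs. Cd34, a surface marker of quiescent satellite cells, had 149 and 245 CPM, a ratio of 1.64 (1.05 to 2.66). Tenm4, a teneurin, had 188 and 69.6 CPM, a ratio of 0.371 (0.204 to 0.657). Ncam1, an adhesion molecule of committed muscle cells and of nerve, had 227 and 355 CPM, a ratio of 1.57 (1.08 to 2.30), under 1.5-fold after thinning.

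Collagen genes were lower for 7 of the 9 measured in satellite cells and higher for none, and basement membrane genes were lower for 4 of 6. Sparc had 3105 and 925 CPM, a ratio of 0.298 (0.257 to 0.345). Col4a1 had 652 and 415 CPM, a ratio of 0.636 (0.490 to 0.825) that was inside 1.5-fold after thinning, and Col3a1 had 1315 and 932 CPM, a ratio of 0.709. Imprinted genes were lower for 3 of 7: Mest, a paternally expressed gene, had 204 and 33.2 CPM, a ratio of 0.162 (0.0719 to 0.333), and Meg3 had 2851 and 1688 CPM, a ratio of 0.592 (0.523 to 0.670). Peg3, with 1260 and 952 CPM, had a ratio of 0.755, inside 1.5-fold.

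Growth factor ligands of satellite cells were lower for 6 of 9 and higher for 2. Tgfb2 had 33 and 13 UMIs, Bmp4 41 and 26, and Pdgfa, a ligand for the receptor on FAPs, 46 and 32, with ratios of 0.236, 0.381 and 0.418. Igf1, the growth factor of muscle fibres, had 238 and 103 CPM, a ratio of 0.433 (0.264 to 0.703), and 0.273 in the irradiated limbs. Among the ranked higher genes were the chemokine Ccl19 (the row with ENSMUSG00000071005, since the symbol is repeated), with 4 and 45 UMIs and a ratio of 6.75, and Lpl, with 10 and 74 UMIs and a ratio of 4.44. Dbp had 26 and 25 UMIs, a ratio of 0.577 (0.320 to 1.04), and Cdkn1a 23 and 15, a ratio of 0.391 (0.190 to 0.783). Dbp was inside 1.5-fold under 3 other class definitions and Cdkn1a after thinning. Fos, at 13018 and 9896 CPM, had a ratio of 0.760, and 5 of 17 immediate early genes were lower and 1 higher. In satellite barcodes endothelial gate genes summed to 11.1 and 23.2 CPM, with 8 and 5 of the 10 at 0, and FAP gate genes to 365 and 441 CPM, with 6 and 5 of the 8 at 0. Their part in the ratios was not tested.

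In mural cells Sparc was lower at 56 days, and basement membrane and collagen genes went both ways. Of 2403 genes measured, 272 (11.3%) were higher and 402 (16.7%) lower, with a median log2 ratio of -0.12, and centred on the median gene the counts were 358 and 297. Col4a1 had 1785 and 1034 CPM, a ratio of 0.579 (0.488 to 0.688) that was inside 1.5-fold with a mitochondrial limit of 10%, Col15a1 had 39 and 16 UMIs, a ratio of 0.262, and Sparc had 4384 and 1749 CPM, a ratio of 0.399 (0.353 to 0.450). Basement membrane genes were lower for 5 of 11 and higher for 2. Collagen genes were lower for 5 of 13 and higher for 3, with Col3a1 at 564 and 878 CPM, a ratio of 1.56 (1.21 to 2.01), and Col1a1 at 32 UMIs in both libraries, a ratio of 0.638 (0.378 to 1.07). Col3a1 was inside 1.5-fold under 3 of the alternatives, thinning among them, and Col1a1 under 6. All 4 imprinted genes measured were lower, but their median log2 ratio of -0.83 became -0.03 with classes from Leiden clusters. Meg3 had 595 and 204 CPM, a ratio of 0.342 (0.239 to 0.486), and Igf2 had 50 UMIs in both libraries, a ratio of 0.638 that was 1.41 without the largest barcode of each library.

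The ranked genes of mural cells were AY036118, a noncoding RNA gene, Tmem176a and Fer, a tyrosine kinase, which were higher, and Maged2, Fam110b and Sparc, which were lower. AY036118 had 1716 and 6788 CPM, a ratio of 3.96 (3.48 to 4.51). Tmem176a had 4 and 42 UMIs and Fer 2 and 28, with ratios of 6.69 and 8.93. Maged2 had 34 and 6 UMIs and Fam110b 34 and 12, with ratios of 0.113 and 0.225. Ccn1, a matricellular growth factor, had 808 and 315 CPM, a ratio of 0.390, and Igfbp4 had 200 and 479 CPM, a ratio of 2.39 (1.61 to 3.65), opposite to its direction in endothelium, though that difference was not tested. Pdgfa had 27 and 69 UMIs, a ratio of 1.63 (1.03 to 2.64), inside 1.5-fold when barcodes were weighed equally and with a mitochondrial limit of 10%. Fos had 2186 and 2304 CPM, a ratio of 1.05 (0.921 to 1.21). In mural barcodes haemoglobin summed to 1860 and 99.8 CPM and endothelial check genes to 1259 and 1933 CPM, and their part in the ratios was not tested.

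In Schwann cells most myelin genes were inside 1.5-fold, while 10 of 15 immediate early genes were lower at 56 days. Of 2790 genes measured, 450 (16.1%) were higher and 355 (12.7%) lower. Of 15 myelin genes measured, 2 were higher and 2 lower. Mal, a myelin lipid raft protein, had 2160 and 1409 CPM, a ratio of 0.652 (0.563 to 0.755), and Drp2, which links the myelin sheath to its basement membrane, had 408 and 675 CPM, a ratio of 1.65 (1.26 to 2.19). Mal was inside 1.5-fold after thinning, and Drp2 without the barcodes of highest doublet score. Hmgcs1, an enzyme of the cholesterol synthesis that myelin needs, had 352 and 581 CPM, a ratio of 1.65 (1.23 to 2.23) that was inside 1.5-fold after thinning, with Leiden clusters and without the largest barcode of each library. Of 10 genes of that pathway 2 were higher and none lower.

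Immediate early genes were lower for 10 of 15 in Schwann cells and higher for none. Junb had 1158 and 517 CPM, a ratio of 0.446 (0.355 to 0.558). Btg2 had 43 and 18 UMIs, a ratio of 0.355 (0.193 to 0.628), unlike its ratio of 1.02 in endothelium. Nfkbia, the inhibitor of NF-kB, had 232 and 68.3 CPM, a ratio of 0.295, and Fos had 5393 and 3501 CPM, a ratio of 0.649 that was inside 1.5-fold without the largest barcode of each library. Cdkn1a had 1052 and 1046 CPM, a ratio of 0.994 (0.823 to 1.20), and Cdkn1b, another inhibitor of cyclin-dependent kinases, had 373 and 734 CPM, a ratio of 1.97 (1.49 to 2.62). Hsp90aa1 had 191 and 427 CPM, a ratio of 2.23 (1.52 to 3.33).

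Collagen genes of Schwann cells were lower for 5 of 13 and higher for 2. Col1a1 had 634 and 231 CPM, a ratio of 0.363 (0.259 to 0.504), Col3a1 had 113 and 11 UMIs, a ratio of 0.0825 (0.0401 to 0.153), and Sparc had 5831 and 3134 CPM, a ratio of 0.537 (0.489 to 0.590). Postn went the other way, with 569 and 991 CPM and a ratio of 1.74 (1.38 to 2.20), inside 1.5-fold after thinning. FAP gate genes summed to 277 and 448 CPM in Schwann barcodes, with 7 and 5 of the 8 at 0. The ranked lower genes were Entpd2, an ectonucleotidase of non-myelinating Schwann cells, with 30 UMIs and 1 UMI, Degs1, a ceramide desaturase, with 46 and 12, Col27a1 with 76 and 28, Nfkbia and Junb. The ratio of Entpd2 was 0.0283 (0.000693 to 0.170), and 53.2 from 2 and 32 UMIs in the irradiated limbs. The ranked higher genes were AY036118, with 1027 and 4018 CPM and a ratio of 3.91 (3.36 to 4.57), and Ckap5, Grik2, Atxn2 and Cnot1, with 5 to 8 UMIs at 24 hours, 27 to 38 at 56 days and ratios from 4.03 to 4.58.

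Sparc was lower in all 5 stromal and vascular classes of the shielded limbs, with ratios of 0.414 in endothelium, 0.353 in FAPs, 0.298 in satellite cells, 0.399 in mural cells and 0.537 in Schwann cells. In the irradiated limbs the ratios in the same order were 0.990, 0.678, 0.585, 0.826 and 1.09. Under all alternatives run, the shielded ratios in these classes stayed between 0.262 and 0.643. B cells, which do not make it, held 7.14 and 7.91 CPM. Meg3 was lower in FAPs, satellite cells and mural cells, in the last not under 2 of the other class definitions, and endothelium held 5.77 and 9.54 CPM. Col4a1 differed by class, from 949.8 and 1084 CPM in FAPs to the lower values given for mural and satellite cells.

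**Figure D3:**
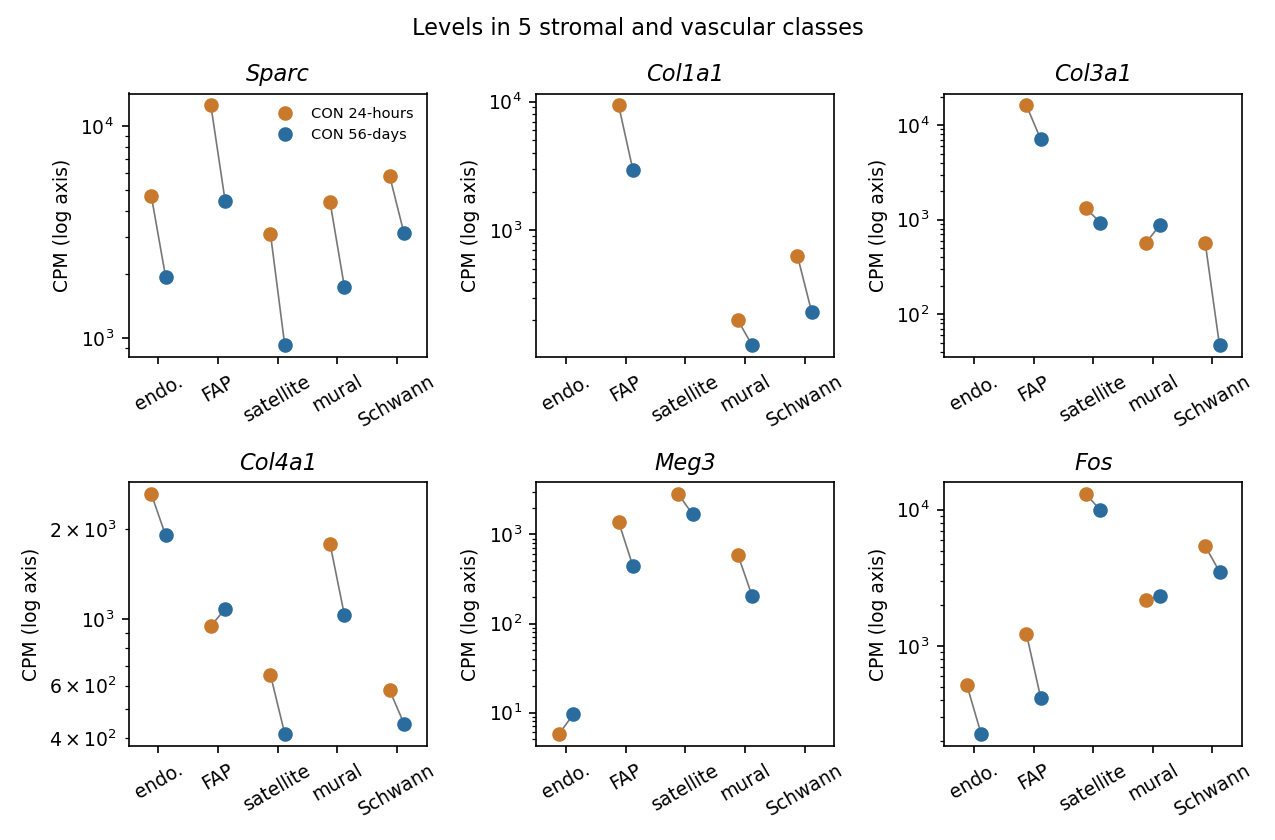
CPM (log axis) of 6 genes in 5 stromal and vascular classes of the shielded limbs at 24 hours (orange) and 56 days (blue), where the gene was measured, with 1 library for each point. Sparc is lower at 56 days in all 5 classes, Col1a1 stands at 9323 and 2930 CPM in FAPs, and Fos is lower in endothelium and FAPs but stands at 2186 and 2304 CPM in mural cells.

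**Figure D4:**
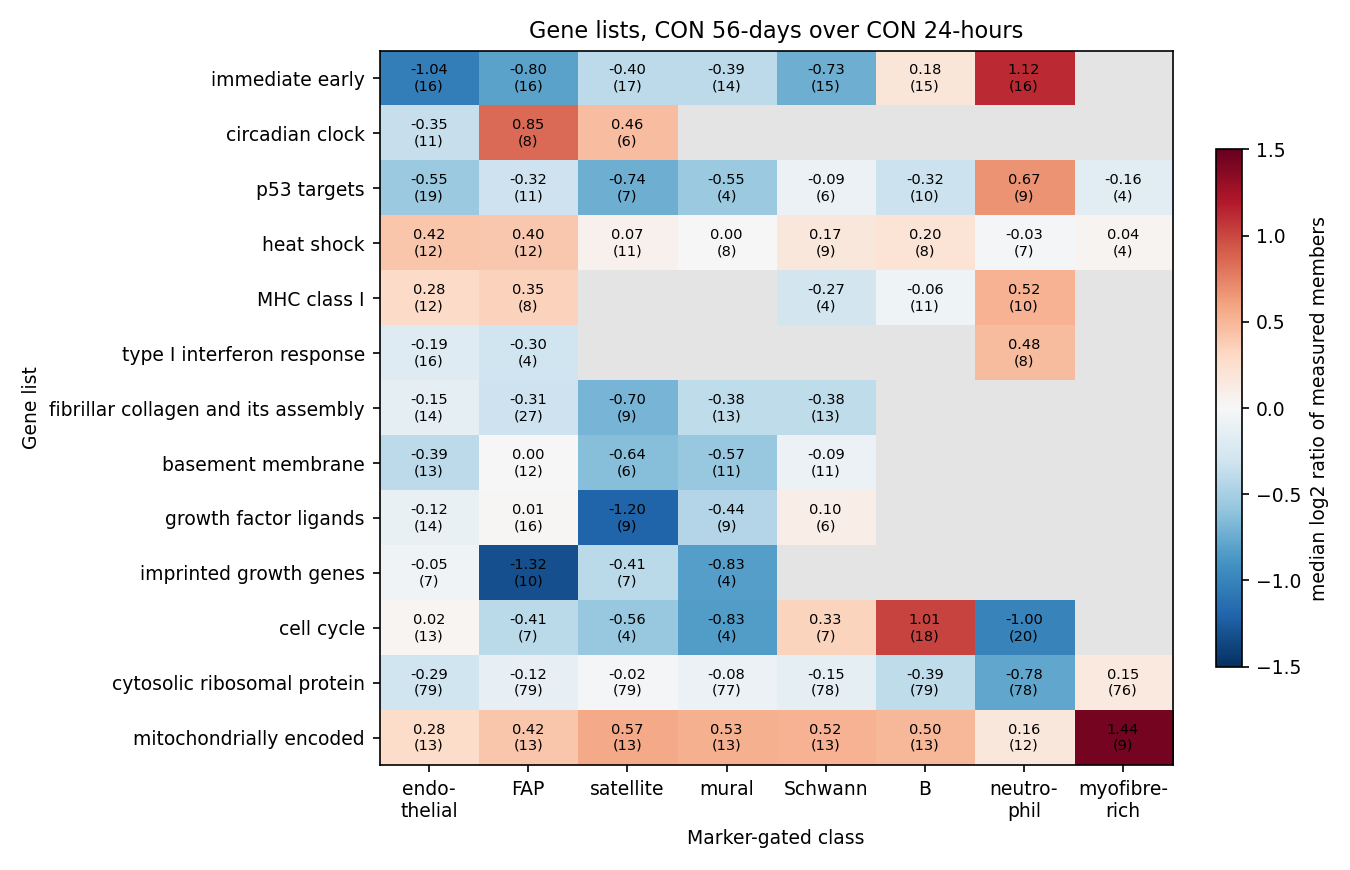
Median log2 ratio of the measured members (number in brackets) of 13 gene lists in 8 classes of the shielded limbs, 56 days over 24 hours, with grey where under 4 members were measured. Immediate early genes stand at -1.04 in endothelium and 1.12 in neutrophils, imprinted genes at -1.32 in FAPs, and mitochondrially encoded genes above 0 in every class shown; the erythroid class is left out because haemoglobin sets its totals.

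In myofibre-rich barcodes, Actc1 and H19, both known for high levels in immature muscle, were lower at 56 days. Actc1, the cardiac actin that developing skeletal fibres also make, had 209 UMIs at 24 hours and 4 at 56 days, or 1123 and 74.3 CPM, a ratio of 0.0661 (0.0179 to 0.172). It was seen in 46 of 81 barcodes (56.8%, 45.3% to 67.8%) and in 2 of 28 (7.14%, 0.877% to 23.5%). Thinned to 1000 UMIs, with 36 and 13 shallower barcodes left out, the shares were 27 of 45 (60.0%) and 1 of 15 (6.67%). B cells, which do not make it, had it in 5 of 241 and 0 of 68 barcodes at medians of 3132 and 3140 UMIs. The irradiated limbs had 466 and 7 UMIs, a ratio of 0.0669. H19 had 72 UMIs and 1 UMI, a ratio of 0.0480 (0.00120 to 0.276), with 26.4% of its UMIs at 24 hours in 1 barcode. In the irradiated limbs H19 had 130 and 6 UMIs, a ratio of 0.206.

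Of 782 genes measured in these barcodes, 139 (17.8%) were higher and 80 (10.2%) lower, or 108 and 107 when centred on the median gene. Mylpf, the fast regulatory light chain, had 68749 and 34358 CPM, a ratio of 0.50 (0.476 to 0.525), and Myl1, a fast essential light chain, had 40470 and 28508 CPM, a ratio of 0.704. Myh4, the heavy chain of the fastest fibres, had 865 and 3919 CPM, a ratio of 4.53, but 0.985 without the largest barcode of each library. Fast fibre genes, several of which gate the class, as a list were lower for 3 of 10 and higher for 1. All 9 mitochondrially encoded genes measured were higher, summing to 3053 and 8172 CPM. The largest barcode held 80100 of 186039 UMIs at 24 hours and 10667 of 53844 at 56 days, and the median log2 ratio of the mitochondrial list was 1.44 with these barcodes and 0.89 without. Myh3 and Myh8, the embryonic and neonatal heavy chains, had 0 UMIs in the kept barcodes of all 4 libraries, a count that allows up to 3 UMIs in each.

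**Figure D5:**
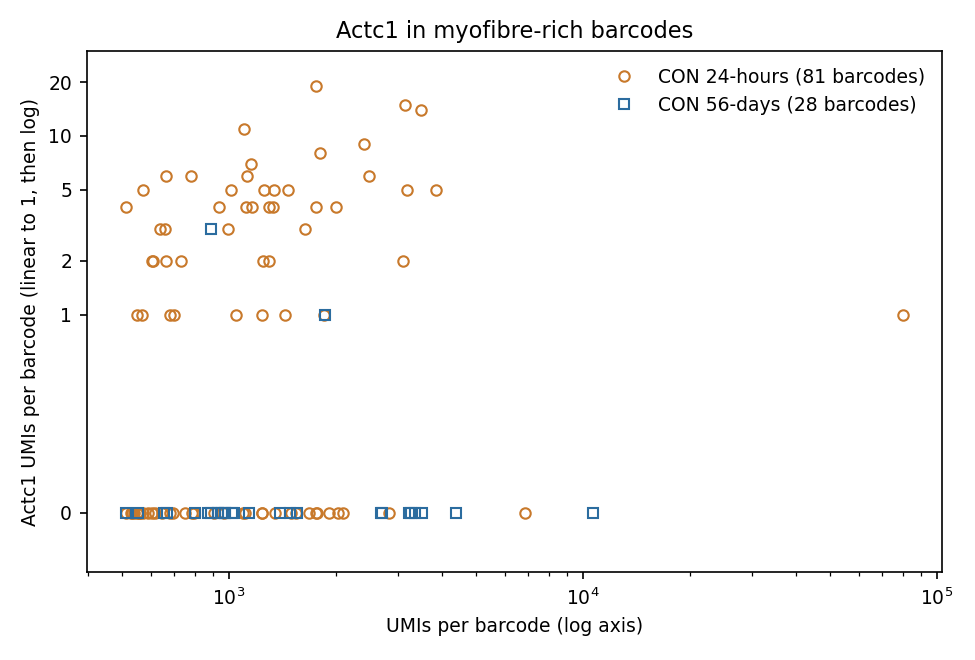
Actc1 UMIs (linear to 1, then log) against all UMIs (log axis) of each myofibre-rich barcode, for 81 barcodes at 24 hours (circles) and 28 at 56 days (squares) of the shielded limbs. Actc1 was seen in 46 barcodes at 24 hours, at up to 19 UMIs, and in 2 at 56 days, and the barcode of 80100 UMIs held 1.

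Of the 8 genes that mark mature B cells 2 were higher and 1 lower at 56 days, near the shares among all genes. Most cell cycle genes were higher. Of 4517 genes measured, 864 (19.1%) were higher and 501 (11.1%) lower, with a median log2 ratio of 0.15, and centred the counts were 645 and 659. Cell cycle genes were higher for 14 of 18 and lower for none, and Mki67, which marks dividing cells, had 131 and 419 CPM, a ratio of 3.20 (2.43 to 4.22), though 1 barcode held 22.7% of its UMIs at 24 hours and another 33.0% at 56 days. The median log2 ratio of the list was 1.01 and became 0.42 after thinning to 1000 UMIs and 0.52 with Leiden clusters. Barcodes with a UMI of Mki67 or Top2a were 13 of 241 (5.39%, 2.90% to 9.05%) and 8 of 68 (11.8%, 5.22% to 21.9%), and 4.68% and 10.4% after thinning, with intervals that overlapped. Schwann cells, which rarely divide, had 0 of 53 and 1 of 57 such barcodes at medians of 3740 and 3872 UMIs. The ranked lower genes were Ccr6, a chemokine receptor of mature B cells, with 51 UMIs and 1 UMI, Spns3 with 58 and 2, Usp7, a deubiquitinase, with 87 and 8, Cd83, an activation marker, with 415 and 60, and Cd52, with 3135 and 1696 CPM and a ratio of 0.541. Their other ratios were 0.0652 for Ccr6, 0.115 for Spns3, 0.306 for Usp7 and 0.480 for Cd83.

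Fcho2, Acox3, Gatad2a, Otud1 and Arhgap15 were the ranked higher genes of B cells. Arhgap15, a regulator of Rac, had 164 and 399 CPM, a ratio of 2.43 (1.86 to 3.17), and the other 4 had 14 to 25 UMIs at 24 hours, 17 to 26 at 56 days and ratios from 3.46 to 4.27. Cd55, which protects cells from complement, had 337 and 700 CPM, a ratio of 2.08 (1.71 to 2.52). Cr2, the complement receptor of mature B cells, had 131 and 22 UMIs, a ratio of 0.558 (0.338 to 0.881). Cd74, the chaperone of MHC class II, had 10214 and 7965 CPM, a ratio of 0.780, and 1 of 7 genes of that list was lower and none higher. In B cells fibre gate genes summed to 575 and 107 CPM, and the part of such free RNA in the ratios was not tested.

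Neutrophils at 56 days had higher immediate early and lower ribosomal protein and cell cycle genes than the 30 barcodes of 24 hours, but these differences hung on a few barcodes. Of 4727 genes measured, 1412 (29.9%) were higher and 736 (15.6%) lower, with a median log2 ratio of 0.13, and centred the counts were 1068 and 1030. Immediate early genes were higher for 13 of 16 and lower for none. Zfp36, which destabilises cytokine messages, had 349 and 792 CPM, a ratio of 2.27 (1.86 to 2.80), Dusp1 had 171 and 416 CPM, a ratio of 2.43, and Fos, named outside the rule because it is described in other classes, had 497 and 967 CPM, a ratio of 1.95. Cell cycle genes were lower for 17 of 20, with Stmn1, a microtubule regulator of dividing cells, at 625 and 212 CPM, a ratio of 0.340 (0.284 to 0.407). Ribosomal protein genes were lower for 55 of 78. Without the 5% of barcodes with the highest doublet scores, which took 9 of the 30 neutrophils at 24 hours and 18 of the 237 at 56 days, the median log2 ratios went from 1.12 to 0.08 for immediate early genes, from -1.0 to 3.21 for cell cycle genes and from -0.78 to 0.44 for ribosomal protein genes. Whether the barcodes left out were doublets was not tested.

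Mki67 or Top2a was seen in 6 of 30 neutrophil barcodes (20%, 7.71% to 38.6%) at 24 hours and in 23 of 237 (9.70%, 6.25% to 14.2%) at 56 days, and in 13.8% and 5.53% after thinning. Ccl4, a chemokine of activated neutrophils, had 0 and 204 UMIs, at least 12.7-fold higher against a floor of 3 UMIs, and Ctsl, a lysosomal protease, had 0 and 77, at least 4.79-fold higher. Ifi27l2a, an interferon-response gene, had 4 and 200 UMIs, a ratio of 9.32 (3.58 to 34.5). Chil3, a chitinase-like protein of immature neutrophils, had 5290 and 2777 CPM, a ratio of 0.525, and Ubxn6 and Bckdk had 17 and 30 and 15 and 26 UMIs, ratios of 0.329 and 0.323. Chil3 and Bckdk had ratios of 1.23 and 1.31 without the barcodes of highest doublet score. In neutrophil barcodes haemoglobin summed to 95.4 and 3751 CPM and endothelial gate genes to 9.87 and 166 CPM. In the 27 and 216 barcodes with no endothelial gate UMI and at most 20 haemoglobin UMIs the immediate early median log2 ratio was 0.92.

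Erythroid barcodes held a smaller share of haemoglobin RNA at 56 days. Haemoglobin genes were 75.5% of their UMIs at 24 hours and 36.9% at 56 days, so 2979 of 3351 genes measured (88.9%) were higher and 35 (1.04%) lower by the class total, with a median log2 ratio of 1.63, and centred on the median gene the counts were 931 and 864. With haemoglobin left out of the totals, a choice made after the values were seen, 1318 of 3345 (39.4%) were higher and 520 (15.5%) lower. By the class total Bpgm, which makes 2,3-bisphosphoglycerate in red cells, had 1893 and 590 CPM, a ratio of 0.312 (0.282 to 0.345), Mkrn1, a ubiquitin ligase abundant in red cell precursors, had 1652 and 767 CPM, and Tent5c, a poly(A) polymerase, had 489 and 256 CPM. The other ranked lower genes were Rsad2, with a ratio of 0.460, and Fam220a (the row with ENSMUSG00000118332), with 24 and 15 UMIs. When barcodes were weighed equally, Mkrn1, Tent5c and Rsad2 were no longer 1.5-fold lower, and Rsad2 went the other way. With haemoglobin left out of the class totals, the ratios were 0.121 for Bpgm, 0.180 for Mkrn1, 0.203 for Tent5c and 0.179 for Rsad2. The ranked higher genes were Cox5a, a subunit of cytochrome oxidase, with 6 and 213 UMIs, Sltm with 1 and 73, and Zfp638, Spag5 and the heat shock gene Hspa1a, with 0 at 24 hours and 58, 53 and 48 at 56 days, at least 8.80, 8.04 and 7.28-fold higher. Mki67 had 387 and 1621 CPM, a ratio of 4.18, and 1.62 with haemoglobin left out. The cell cycle list was then higher for only 3 of 21 genes and lower for none, with a median log2 ratio of -0.045. Barcodes with Mki67 or Top2a were 26 of 52 (50.0%, 35.8% to 64.2%) and 71 of 90 (78.9%, 69.0% to 86.8%), and 30.0% and 58.8% after thinning to 1000 UMIs, a total that haemoglobin fills unequally in the libraries.

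AY036118 was higher at 56 days in all 5 stromal and vascular classes, and so were some of the mitochondrially encoded genes. Mitochondrially encoded genes were higher for 4 of 13 in endothelium, 4 of 13 in FAPs, 5 of 13 in satellite cells, 5 of 13 in mural cells, 6 of 13 in Schwann cells and 5 of 13 in B cells, and lower for none, against 12%, 21.2%, 16.1%, 11.3%, 16.1% and 19.1% of all genes in the same order. AY036118 had ratios of 2.60 in endothelium, 1.70 in FAPs, 1.98 in satellite cells, 3.96 in mural cells and 3.91 in Schwann cells, and in the irradiated limbs 0.387, 0.347, 0.429, 0.316 and 0.292. The FAP ratio was inside 1.5-fold with Leiden clusters and without the barcodes of highest doublet score. In B cells AY036118 had 740 and 870 CPM, a ratio of 1.18 (1.00 to 1.37), and its ratios were 1.87 in neutrophils, 2.21 in erythroid barcodes, whose totals haemoglobin sets, and 1.58 (0.995 to 2.44) in myofibre-rich barcodes. Only the mural and Schwann values of this gene fall under the rule for named genes. The source of these shared differences was not tested.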

How the data were processed

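The deposited files hold UMI counts per gene and barcode of 4 libraries, made by the authors with Cell Ranger 5.0.0 on mm10, per the submitters' processing notes. They list 32285 genes, among which 38 symbols are repeated, and values are kept by gene identifier. Barcodes were kept and gated as the report says; a barcode passing several gates went to the class with at least 4 times the gate UMIs of each other, otherwise to mixed. Counts were summed over each class and scaled to CPM. Intervals of ratios are exact conditional binomial ones and those of shares Clopper-Pearson. Genes were ranked by the interval bound nearest to 1, without genes of the mitochondrion, ribosomal proteins, haemoglobin, other classes' markers, or with over 20% of UMIs in 1 barcode; 5 each way are named in the 4 largest classes and 3 each way in the others, plus up to 4 members of each of 39 lists and fixed genes; some genes that the rule names are not reported here. Members and lists were chosen with earlier results of these data known, and the mural class was joined from pericytes and smooth muscle after their numbers were seen. A class is described from 25 barcodes in both libraries. The kept libraries held 6026307 and 8563823 UMIs. With 1 library a group no spread between animals can be estimated. Doublets were not removed except in an alternative with Scrublet scores. The scripts were tested on simulated data and used Python 3.11.15, numpy 2.4.6, scipy 1.17.1, pandas 2.3.3, scanpy 1.11.5, leidenalg 0.10.2 and matplotlib 3.10.9.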

Additional observations from a re-analysis of the deposited data

Results flagged for a closer look

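The results named here moved in opposite directions in the shielded and the irradiated pair, each with an interval of counting error that excludes 1 (list medians: each past 1.5-fold), and the difference between the pairs was not tested. All pairs of values are 56 days over 24 hours, shielded limbs first. In endothelium they were Isg15 (0.51 and 2.40), Irf7 (0.593 and 3.71), Col15a1 (0.497 and 1.94), Rbp7 (0.538 and 1.86), Insr (1.96 and 0.635) and AY036118 (2.6 and 0.387). In Schwann cells they were AY036118 (3.91 and 0.292), Grik2 (4.24 and 0.458), Entpd2 (0.0283 and 53.2), Col3a1 (0.0825 and 2.34) and Postn (1.74 and 0.655). In FAPs they were Lama2 (1.64 and 0.362), Tef (2.29 and 0.405) and AY036118 (1.7 and 0.347). AY036118 also differed in mural cells (3.96 and 0.316) and satellite cells (1.98 and 0.429), as did Fer in mural cells (8.93 and 0.368).

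In B cells Arhgap15 (2.43 and 0.601) and Cd55 (2.08 and 0.506) moved apart. In neutrophils these were Ccl4 (at least 12.7-fold higher, and 0.184), Ifi27l2a (9.32 and 0.199), Chil3 (0.525 and 8.69), Zfp36 (2.27 and 0.183), Dusp1 (2.43 and 0.09), Fos (1.95 and 0.121) and Stmn1 (0.34, and at least 7.1-fold higher). Stmn1 is on the cell cycle list, whose shielded median changed sign without the barcodes of highest doublet score. The ratio of Stmn1 alone without those barcodes is not given, so its direction is not shown to hold. Myh4 in myofibre-rich barcodes had 4.53 and 0.616, but 0.985 in the shielded limbs without the largest barcode of each library. Median log2 ratios of lists that moved apart were those of clock genes in FAPs (0.85 and -0.89) and, in neutrophils, of cell cycle (-1.0 and 4.39), immediate early (1.12 and -3.05) and ribosomal protein genes (-0.78 and 0.59). Without the barcodes of highest doublet score the 3 shielded neutrophil medians were 3.21, 0.08 and 0.44, so those of cell cycle and ribosomal protein genes then had the sign of the irradiated pair, and Chil3, Fos, Zfp36 and Dusp1 in neutrophils were no longer past 1.5-fold the same way. Nor were Isg15 in endothelium, Postn in Schwann cells, and Lama2, Tef and AY036118 in FAPs under at least 1 alternative. The ratio of shares did so for endothelial barcodes (1.3 and 0.825), B cells (0.222 and 1.5) and all blood and marrow barcodes (0.778 and 2.01). Outside the classes described, 1 barcode of the shielded library at 24 hours that met no gate held 50 UMIs of Myog, a factor of myoblast differentiation, against 3 UMIs in the whole shielded library at 56 days.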

How the results depend on the processing

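Of 137 gene ratios named and past 1.5-fold, 104 stayed past it the same way under every alternative that gave a ratio. Another 33 did not in at least 1, and 8 of those changed direction. An alternative that left 1 library with no UMI of a gene gave no ratio and is not counted, whichever way it went. Of 20 list medians past 1.5-fold, 7 stayed so. The cause of each change was not tested unless fewer genes or barcodes made it. No paired analysis was possible because each group has 1 library, replicate 1. Counts below are genes higher and then lower.

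With a limit of 2-fold they were 262 and 185 in endothelium, 290 and 157 in B cells, 154 and 96 in Schwann cells, 465 and 130 in FAPs, 83 and 110 in mural cells, 716 and 267 in neutrophils, 61 and 41 in myofibre-rich barcodes and 152 and 97 in satellite cells, and 11 lower in erythroid barcodes. With every gene of 1 UMI or more they were 3838 and 3263 in endothelium, 3690 and 3685 in B cells, 4170 and 3188 in Schwann cells, 9262 and 554 in erythroid barcodes, 5178 and 2959 in FAPs, 3600 and 4057 in mural cells, 5858 and 2601 in neutrophils, 2561 and 2836 in myofibre-rich barcodes and 4497 and 3242 in satellite cells. With 100 UMIs or more they were 599 and 325 in endothelium, 180 and 90 in B cells, 53 and 62 in Schwann cells, 235 and 132 in FAPs, 41 and 68 in mural cells, 581 and 241 in neutrophils, 29 and 18 in myofibre-rich barcodes and 57 and 75 in satellite cells, and 1083 higher in erythroid barcodes. With each barcode thinned to 1000 UMIs they were 238 and 207 in B cells, 68 and 87 in Schwann cells, 241 and 11 in erythroid barcodes, 112 and 98 in FAPs, 37 and 83 in mural cells, 370 and 124 in neutrophils, 53 and 32 in myofibre-rich barcodes and 42 and 66 in satellite cells.

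Classes from Leiden clusters gave 547 and 731 in mural cells, a ratio of 0.799 for the share of monocytes or macrophages and 0.521 for Ccn2 in FAPs, and a mitochondrial limit of 10% gave 178 and 262 in mural cells. Mixed barcodes put in their top class gave 425 higher in mural cells. The mean of per-barcode CPM gave 79 lower in erythroid barcodes, 835 lower in FAPs and 432 higher in mural cells. It gave ratios of 1.29 for Rsad2 in erythroid barcodes and 1.16 for Igf2 in mural cells. Centring gave 931 and 864 in erythroid barcodes and a cell cycle median of -0.31, and leaving haemoglobin out, chosen after seeing the data, gave 1318 and 520 and -0.045. Thinning gave Tent5c a ratio of 1.05 and shares of cycling barcodes of 0% in endothelium at 24 hours, 5.53% in neutrophils at 56 days and 30.0% and 58.8% in erythroid barcodes. Without the highest Scrublet scores neutrophils had 417 lower, ratios of 1.23 for Chil3, 1.31 for Bckdk and 0.979 for Fos, and medians of 3.21 for cell cycle and 0.44 for ribosomal protein genes. Without the largest barcode, also chosen after seeing the data, Igf2 in mural cells had 1.41, Myh4 had 0.985 and 51 genes were lower in myofibre-rich barcodes. Leaving out neutrophil barcodes with endothelial or over 20 haemoglobin UMIs, likewise added, gave 407 lower. Among stromal and vascular barcodes the endothelial share ratio was 0.995. Tenocytes gave no value by Leiden clusters, with no barcode at 24 hours. Few barcodes limit satellite cells, neutrophils and mural cells, with 26, 30 and 44 at 24 hours, and low depth limits the 28 myofibre-rich barcodes of 56 days, with 53844 UMIs in all.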
